A study of Mus musculus with 6 samples.

Results

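The transcripts of 37 genes of pyruvate oxidation and the tricarboxylic acid (TCA) cycle were described in NIH/3T3, a fibroblast line established from mouse embryos, after knockdown of the glycolytic enzyme aldolase A (Aldoa). The 37 genes were taken as a fixed list of symbols, chosen with earlier results of these data known. All of them were found among the 18001 genes of the deposited expression table. The comparison asks whether the messages for mitochondrial carbon entry change when Aldoa is lowered. Cells of the siAldoa group (siALDOA in the labels) received pooled siRNAs directed at Aldoa, and cells of the siCtrl group (siCTR in the labels) pooled non-targeting control siRNAs. Both groups were of the same cell line, were grown in DMEM with 10% FCS and 1% Pen-Strep, and were harvested 48 h after transfection, with 3 libraries of poly(A) RNA per group. The model is a knockdown and not a deletion, and the labels give no further allele, agent or line. The study calls the replicates biological, while the labels number them without naming separate cultures, and the p-values measure the spread between these samples.

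Pyruvate made by glycolysis enters mitochondria through the pyruvate carrier and is there either oxidized to acetyl-CoA by the pyruvate dehydrogenase complex or carboxylated to oxaloacetate by pyruvate carboxylase. Kinases (PDKs) switch the dehydrogenase complex off by phosphorylating it, and phosphatases (PDPs) switch it back on. Citrate synthase joins both products, the cycle then oxidizes citrate step by step, and malic enzymes, aminotransferases and glutamate dehydrogenase connect the cycle with pyruvate, aspartate and glutamate.

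The recovered depth was 3692341 to 3771129 reads per library, at which 3 reads correspond to 0.786 to 0.822 CPM (reads scaled to an effective library size, the unit of all levels given here). Aldoa itself (ENSMUSG00000030695) had 522, 536 and 545 CPM in siCtrl replicates 1, 2 and 3 and 62.9, 69.2 and 72.0 CPM in siAldoa, so 12.7% of the control mean was left. Of 10 fibroblast markers, 9 were in the table and Fap was not listed. Their summed level was 13107 to 13644 CPM in siCtrl and 10851 to 11523 CPM in siAldoa, and it rests mainly on Col1a1, Col1a2 and Vim, which fell. Of the 9 markers, 4 fell and 4 rose by limma (adjusted p under 0.05), the latter being Fn1, Thy1, Pdgfra (34.0 to 48.5 CPM on average) and Pdgfrb (22.2 to 49.9 CPM). Of 20 markers of other lineages, 10 were in the table, with summed levels of 24.1 to 25.7 CPM in siCtrl and 11.5 to 17.8 CPM in siAldoa, and the markers not listed included Epcam, Kdr, Cd3e, Myod1, Myog, Ckm, Adipoq, Plin1 and Lep. By limma the epithelial marker Cdh1 fell (6.32 to 2.76 CPM on average, adjusted p = 0.0071). Krt8, also epithelial, fell on 0 to 6 reads per library (limma adjusted p = 0.045). The part of these markers in the results was not tested. In the 2 groups, reads of replicates 1 and 2 differed from each other by little more than sampling noise (chi-square per degree of freedom 1.12 and 1.11), against 2.07 to 3.24 for pairs with replicate 3.

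Of the 37 genes, 14 passed the test (limma on log2(CPM + 1), adjusted p under 0.05 over all genes), 8 of them lower and 6 higher in siAldoa. Pyruvate carboxylase, citrate synthase, cytosolic isocitrate dehydrogenase and malic enzyme, the catalytic pyruvate dehydrogenase subunit Pdha1 and the kinase Pdk1 rose. Both aspartate aminotransferases, glutamate dehydrogenase, the mitochondrial isocitrate dehydrogenase Idh2, the mitochondrial malic enzyme Me2, Pdhb, Dlst and the phosphatase Pdp1 fell. The changes were small, with log2 fold changes between -0.36 (Pdp1) and 0.43 (Pcx), and no direction was common to the pathway. In these bulk libraries, fewer cells that carry a message and less of it per cell cannot be told apart.

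The share that passed was 37.8% of the 37 genes, against 20.4% of all 18001 genes (10.0% lower and 10.4% higher). Well expressed genes passed more often, and among the 8271 genes with a mean of at least 20 CPM the share was 36.5% (19.1% lower and 17.5% higher), a background chosen after the data were seen. Of the 37 genes, 34 reached that level and 14 of these (41.2%) passed, so the share called lay near that of genes of like level. The groups did not overlap for 13 genes that were lower and 7 that were higher in siAldoa. That is 54.1% of the 37 genes, against 33.8% of all genes (17.1% lower and 16.7% higher). Of the 34 genes with at least 20 CPM it is 58.8%, against 50.0% of all genes at that level (26.0% lower and 24.0% higher). The median log2 fold change was -0.09 over the 37 genes and -0.002 over all genes.

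With reads in place of CPM, edgeR's quasi-likelihood test called 17 of the 37 genes, 10 lower and 7 higher, which are the 14 genes and Idh3a, Idh3b and Suclg2 (background 21.0% of all genes, 10.4% lower and 10.7% higher). By DESeq2, 6 passed, 2 lower and 4 higher (background 18.6% of 11717 genes with an adjusted p, 9.53% lower and 9.1% higher), namely Pdha1, Pcx, Cs, Idh1, Got1 and Got2. At a mean of at least 20 CPM, edgeR called 17 of 34 members, against 3091 of 8271 genes. At that level DESeq2 called 6 of 34 members, against 2002 of 8271 genes. The calls of Pcx and Got1 were kept under all 19 alternative settings and that of Cs under 18 of them, and no gene among the 14 changed sign under any. Of these settings, the TMM scaling of edgeR gave the same counts as the limma test above (3676 genes and 14 of the 37), so it is not a separate check.

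**Figure D1:**
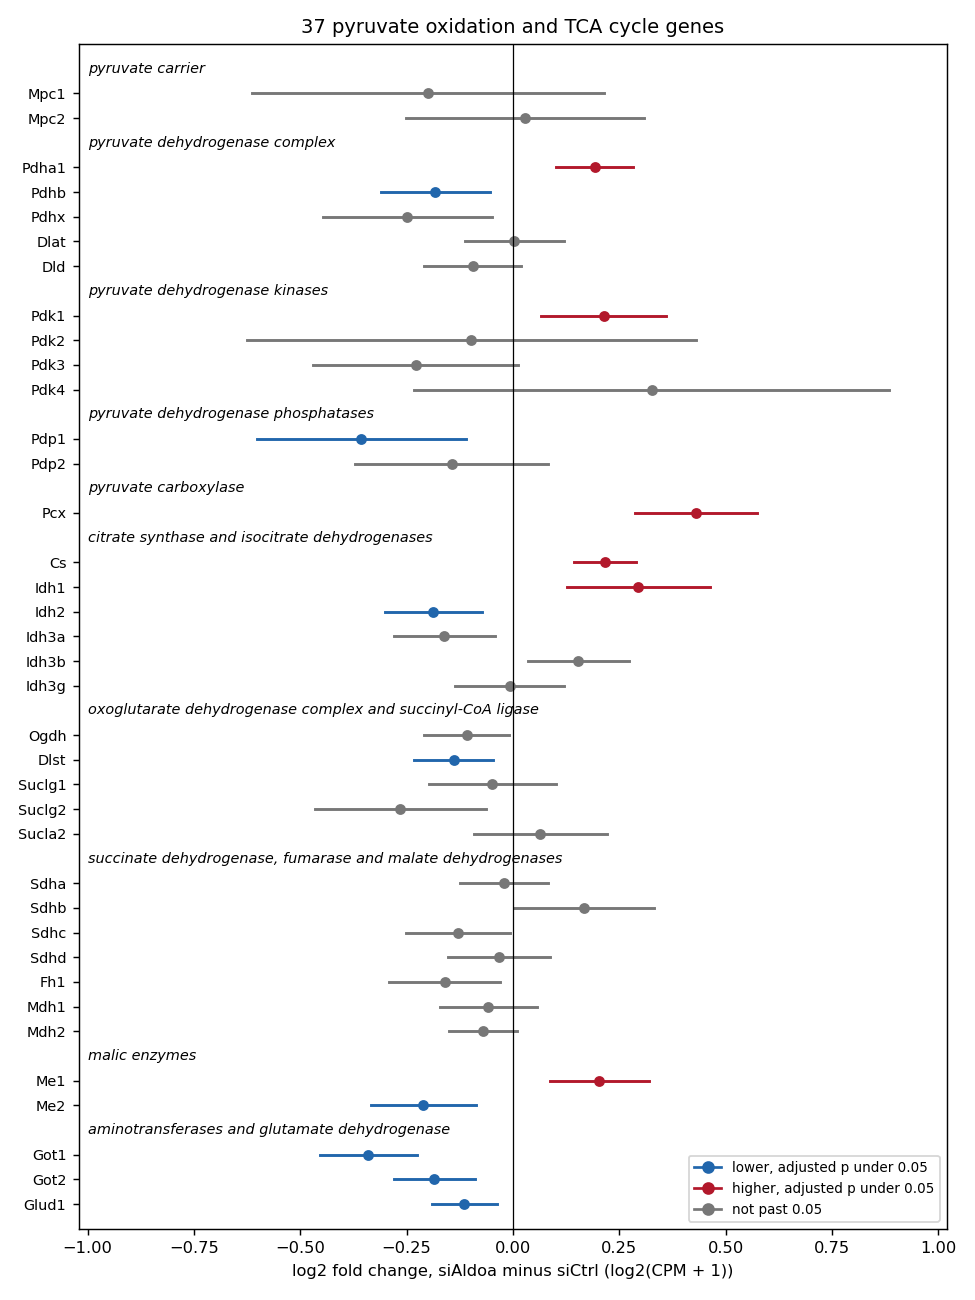
Log2 fold change of each of the 37 genes, siAldoa minus siCtrl on the log2(CPM + 1) scale, with its 95% interval from limma, in the order of the pathway. Red points (higher) and blue points (lower) passed an adjusted p under 0.05 and grey points did not; the values lie on both sides of 0 in most steps, and no gene from succinate dehydrogenase to malate dehydrogenase is coloured.

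The regions 250 bases before the annotated start are given for the 3 genes whose calls were kept in the most settings, which are Pcx, Cs and Got1. They were read from RefSeq promoters of GRCm38.p6, in which 33 of the 37 genes had an entry (Idh3a, Sdhc, Me2 and Pdp1 had none). Capitals mark a match to a searched motif on either strand. Pcx has 2 annotated starts in that table, of which the upstream one is shown (chr19:4510222-4510471 on the plus strand), and the region of the other (chr19:4594069-4594318) held none of the searched motifs. The other regions are chr10:128337477-128337726 on the plus strand for Cs and chr19:43524606-43524855 on the minus strand for Got1.
Pcx promoter: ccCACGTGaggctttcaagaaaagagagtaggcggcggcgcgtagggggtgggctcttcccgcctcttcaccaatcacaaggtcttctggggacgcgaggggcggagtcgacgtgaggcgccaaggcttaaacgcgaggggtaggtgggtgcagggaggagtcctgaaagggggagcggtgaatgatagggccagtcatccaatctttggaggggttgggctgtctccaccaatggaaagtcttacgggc
Cs promoter: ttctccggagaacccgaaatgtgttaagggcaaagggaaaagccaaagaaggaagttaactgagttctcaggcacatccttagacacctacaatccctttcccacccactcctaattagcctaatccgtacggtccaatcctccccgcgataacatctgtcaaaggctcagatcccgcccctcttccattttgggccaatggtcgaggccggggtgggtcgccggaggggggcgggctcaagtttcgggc
Got1 promoter: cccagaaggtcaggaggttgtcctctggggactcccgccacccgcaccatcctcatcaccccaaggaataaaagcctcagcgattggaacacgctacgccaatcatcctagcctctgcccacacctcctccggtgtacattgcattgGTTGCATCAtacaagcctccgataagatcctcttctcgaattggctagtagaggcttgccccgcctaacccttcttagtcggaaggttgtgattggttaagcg
In the Pcx region shown the capitals are an E-box, CACGTG, at -248 to -243 from the start. In the Got1 region they are a match to TGATGNAAN, the C/EBP-ATF response element (CARE), read on the opposite strand at -103 to -95. The CARE letters were in 3.44% of 32851 promoters and, of the 33 genes, in Got1 only. The E-box was in 6.02% of all promoters and in 4 of the 33 genes, Pcx, Ogdh, Pdk2 and Pdp2, of which Pcx passed the test. The motif of nuclear respiratory factor 1 was in 3.74% of all promoters and in Sdha, Sdhd and Sucla2, none of which passed. CCGGAAGT (the GABP letters, 2.88% of all) and CAAGGTCA (the letters of the oestrogen-related receptors, 1.33% of all) were in none of these windows. A match is a description of letters and not a site of binding.

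Entry of pyruvate into the matrix needs both carrier subunits, Mpc1 and Mpc2. For Mpc2, 19.995, 22.2 and 18.8 CPM were measured in siCtrl and 18.6, 24.9 and 19.1 CPM in siAldoa. The groups overlapped, and the log2 fold change of 0.03 had a 95% interval of -0.25 to 0.31. Mpc1 rested on 24 to 34 reads per library and overlapped as well (log2 fold change -0.20, limma adjusted p = 0.55), so a difference of that size in the carrier was not detectable at this depth.

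Within the pyruvate dehydrogenase complex, the subunits of the first enzyme moved in opposite directions. Pdha1, the catalytic alpha subunit and the target of the PDKs, had 215, 210 and 209 CPM in siCtrl and 239, 242 and 243 CPM in siAldoa. All siAldoa libraries lay above all siCtrl libraries, with means of 211 ± 3.51 and 242 ± 1.97 CPM (SD, n = 3). Pdha1 rose by 0.19 ± 0.0435 on the log2 scale (fold change ± standard error, limma adjusted p = 0.0023), and the ± of later log2 values has the same meaning.
Its partner Pdhb, the beta subunit, had 90.1, 90.3 and 92.3 CPM in siCtrl and 82.8, 78.8 and 78.3 CPM in siAldoa. Every siAldoa library was below every siCtrl library, and the message fell to 88.0% of the control (log2 fold change -0.18, limma adjusted p = 0.038). The call of Pdhb was lost without any single library other than siAldoa replicate 1 (adjusted p up to 0.105). Of the other subunits, the acetyltransferase Dlat overlapped between the groups (log2 fold change 0.00, 95% interval -0.11 to 0.12), and Dld, the shared dihydrolipoyl dehydrogenase, had a log2 fold change of -0.09 with overlapping groups. Pdhx, which anchors Dld in the complex, was at 36.2 to 39.4 CPM in siCtrl and 29.4 to 33.8 CPM in siAldoa, without overlap, but did not pass (limma adjusted p = 0.072).

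On the kinase side, Pdk1 had 60.8, 66.2 and 66.9 CPM in siCtrl and 70.7, 76.2 and 78.6 CPM in siAldoa. The groups did not overlap, although the highest control and the lowest knockdown library were only a few CPM apart. Pdk1 rose by 0.21 ± 0.0711 (log2, limma adjusted p = 0.035), a call that was kept among single left-out libraries only without siAldoa replicate 1 and otherwise lost (adjusted p up to 0.151), and also lost under quantile normalization (adjusted p = 0.0505 by limma). Pdk3 was at 27.1 to 32.3 CPM in siCtrl and 22.5 to 29.1 CPM in siAldoa, with overlap and an adjusted p of 0.19. Pdk2, with 7 to 10 reads per library, and Pdk4, with 6 to 13 reads, were too low for a comparison. Per kilobase of exon, Pdk1 made up 39.6, 38.2 and 39.3% of the summed kinase message in siCtrl and 41.6, 46.7 and 49.6% in siAldoa. Pdk3 made up 53.6, 56.6 and 53.8% in siCtrl and 52.1, 45.8 and 43.2% in siAldoa. Neither share overlapped between the groups, and Pdk1 exceeded Pdk3 as the most abundant kinase in siAldoa replicates 2 and 3. These shares were computed after the values were seen and carry no test.

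Among the phosphatases, Pdp1 had 25.5, 29.0 and 25.1 CPM in siCtrl and 21.0, 19.0 and 21.5 CPM in siAldoa. All knockdown libraries were lower, at 77.3% of the control mean. Pdp1 fell, at -0.36 ± 0.118 (log2) the lowest of the 14 calls (limma adjusted p = 0.034), but on 71 to 106 reads per library, and the call was lost when any single library was left out (adjusted p 0.057 to 0.149). For Pdp2, 26.3, 30.4 and 31.7 CPM in siCtrl stood against 25.1, 26.2 and 28.3 CPM in siAldoa, with overlap (log2 fold change -0.14, 95% interval -0.37 to 0.08).

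Pyruvate carboxylase (Pcx, ENSMUSG00000024892, chromosome 19 from 4510472 to 4621752 on the plus strand of GRCm38), which makes oxaloacetate from pyruvate, had the largest fold change of the 14 genes that passed. It had 61.6, 65.4 and 61.4 CPM in siCtrl and 80.7, 83.7 and 90.9 CPM in siAldoa. The groups were far apart relative to their spread, at 62.8 ± 2.24 and 85.1 ± 5.23 CPM (SD, n = 3), and the knockdown mean was 135% of the control. Pcx rose by 0.43 ± 0.0692 (log2, limma adjusted p = 6.1e-05).
Citrate synthase (Cs, ENSMUSG00000005683, chromosome 10 from 128337734 to 128362479 on the plus strand), which condenses oxaloacetate with acetyl-CoA, had 627, 605 and 589 CPM in siCtrl and 724, 695 and 697 CPM in siAldoa. All siAldoa libraries were higher, at 116% of the control. Cs rose by 0.22 ± 0.0351 (log2, limma adjusted p = 6.6e-05). Among the 37 genes Cs was one of the most abundant messages per length, at 105 CPM per kilobase in siCtrl, beside Sdhd and Mdh2 (109 each) and Glud1 (105).

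The isocitrate dehydrogenases did not move together. Idh1, the cytosolic NADP-dependent enzyme, had 60.8, 62.1 and 60.3 CPM in siCtrl and 65.0, 84.5 and 77.2 CPM in siAldoa. The knockdown libraries were all higher but spread widely, and replicate 1 lay close to the controls. Idh1 rose by 0.29 ± 0.0813 (log2, limma adjusted p = 0.011), and the call was lost without siCtrl replicate 1 or 3 or siAldoa replicate 2 or 3 (adjusted p up to 0.123).
Idh2, its mitochondrial counterpart, had 156, 155 and 151 CPM in siCtrl and 125, 140 and 140 CPM in siAldoa. All knockdown libraries were lower, replicate 1 most of all. Idh2 fell (-0.19 ± 0.0549, log2, limma adjusted p = 0.017), a call lost without siCtrl replicate 1 or 2 or siAldoa replicate 1 (adjusted p up to 0.115).
The NAD-dependent enzyme of the cycle is built from Idh3a, Idh3b and Idh3g. Idh3a, the catalytic subunit, had 119, 125 and 126 CPM in siCtrl and 106, 109 and 117 CPM in siAldoa, and Idh3b, a regulatory subunit, had 134, 128 and 131 CPM in siCtrl and 152, 134 and 152 CPM in siAldoa. The groups of both genes were separated by a narrow margin and in opposite directions (log2 fold changes -0.16 and 0.15). Neither passed by limma (adjusted p = 0.051 and 0.059), while both passed by edgeR's quasi-likelihood test (adjusted p = 0.042 and 0.044). Idh3g overlapped (log2 fold change -0.01).

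Downstream, Dlst, the succinyltransferase of the oxoglutarate dehydrogenase complex, had 234, 240 and 232 CPM in siCtrl and 215, 207 and 220 CPM in siAldoa. The groups did not overlap, and Dlst fell (-0.14 ± 0.045, log2, limma adjusted p = 0.030), a call kept among single left-out libraries only without siAldoa replicate 3 and otherwise lost (adjusted p up to 0.133), and also lost under quantile normalization (-0.11, adjusted p = 0.116 by limma). Ogdh, the dehydrogenase of the same complex, was at 167 to 176 CPM in siCtrl and 157 to 161 CPM in siAldoa, also without overlap, but did not pass (log2 fold change -0.11, limma adjusted p = 0.13). Succinyl-CoA ligase pairs the subunit Suclg1 with either Suclg2 (GTP-forming) or Sucla2 (ATP-forming). For Suclg2, 48.2, 58.0 and 61.6 CPM in siCtrl stood against 46.4, 51.8 and 40.8 CPM in siAldoa. The groups overlapped, and Suclg2 passed by edgeR (adjusted p = 0.039) but not by limma (log2 fold change -0.26, adjusted p = 0.057). Suclg1 and Sucla2 overlapped as well, with log2 fold changes of -0.05 and 0.06.

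From succinate to oxaloacetate none of the 7 genes passed, which are the succinate dehydrogenase subunits Sdha, Sdhb, Sdhc and Sdhd, fumarase (Fh1) and the malate dehydrogenases Mdh1 (cytosolic) and Mdh2 (mitochondrial). Mdh2 had 389, 377 and 395 CPM in siCtrl and 374, 362 and 370 CPM in siAldoa. Its siAldoa libraries were all lower, yet the log2 fold change was only -0.07 (95% interval -0.15 to 0.01, limma adjusted p = 0.23). Fh1 did not overlap either, at 101 to 108 CPM in siCtrl and 88.2 to 100 CPM in siAldoa (limma adjusted p = 0.079). The other 5 genes overlapped, and over the 7 genes the log2 fold changes ran from -0.16 (Fh1) to 0.17 (Sdhb). The Sdhb value depended on single libraries, at 0.07 without siCtrl replicate 1 and 0.10 without siAldoa replicate 1, and ran from 0.002 to 0.265 over all left-out libraries. By edgeR and by DESeq2 none of the 7 passed either.

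Malic enzymes turn malate into pyruvate. Me1, the cytosolic NADP-dependent form, had 112, 107 and 114 CPM in siCtrl and 129, 132 and 123 CPM in siAldoa. All knockdown libraries were higher, and Me1 rose by 0.20 ± 0.0561 (log2, limma adjusted p = 0.011). Me2, the mitochondrial NAD-dependent form, went the other way, with 109, 116 and 109 CPM in siCtrl and 101, 94.1 and 93.0 CPM in siAldoa. Its groups were also separate, and Me2 fell (-0.21 ± 0.0597, log2, limma adjusted p = 0.013). The call of Me1 was lost without siCtrl replicate 2 or siAldoa replicate 1 or 2 (adjusted p up to 0.0662), and that of Me2 without siCtrl replicate 2 or siAldoa replicate 2 or 3 (adjusted p up to 0.0754).

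The enzymes that link the cycle to aspartate and glutamate all fell. Got1, the cytosolic aspartate aminotransferase (ENSMUSG00000025190, chromosome 19 from 43499752 to 43524605 on the minus strand), had 142, 146 and 136 CPM in siCtrl and 116, 108 and 111 CPM in siAldoa. The gap between the groups was larger than the spread within either, at 142 ± 5.09 and 112 ± 3.81 CPM (SD, n = 3). Got1 fell to 78.8% of the control (-0.34 ± 0.0551, log2, limma adjusted p = 6.6e-05).
Got2, the mitochondrial form, had 214, 211 and 207 CPM in siCtrl and 181, 190 and 186 CPM in siAldoa. The groups were separate, and Got2 fell (-0.19 ± 0.046, log2, limma adjusted p = 0.005), a call kept without any single library. Glud1, glutamate dehydrogenase, had 448, 443 and 434 CPM in siCtrl and 400, 414 and 410 CPM in siAldoa. The Glud1 groups were separate by a small margin for its level, and its fall (-0.11 ± 0.037, log2, limma adjusted p = 0.029) was the smallest among the 14 calls. The Glud1 call was kept among single left-out libraries only without siCtrl replicate 3 and otherwise lost (adjusted p up to 0.116), and under quantile normalization the value shrank to -0.023 (adjusted p = 0.753 by limma).

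**Figure D2:**
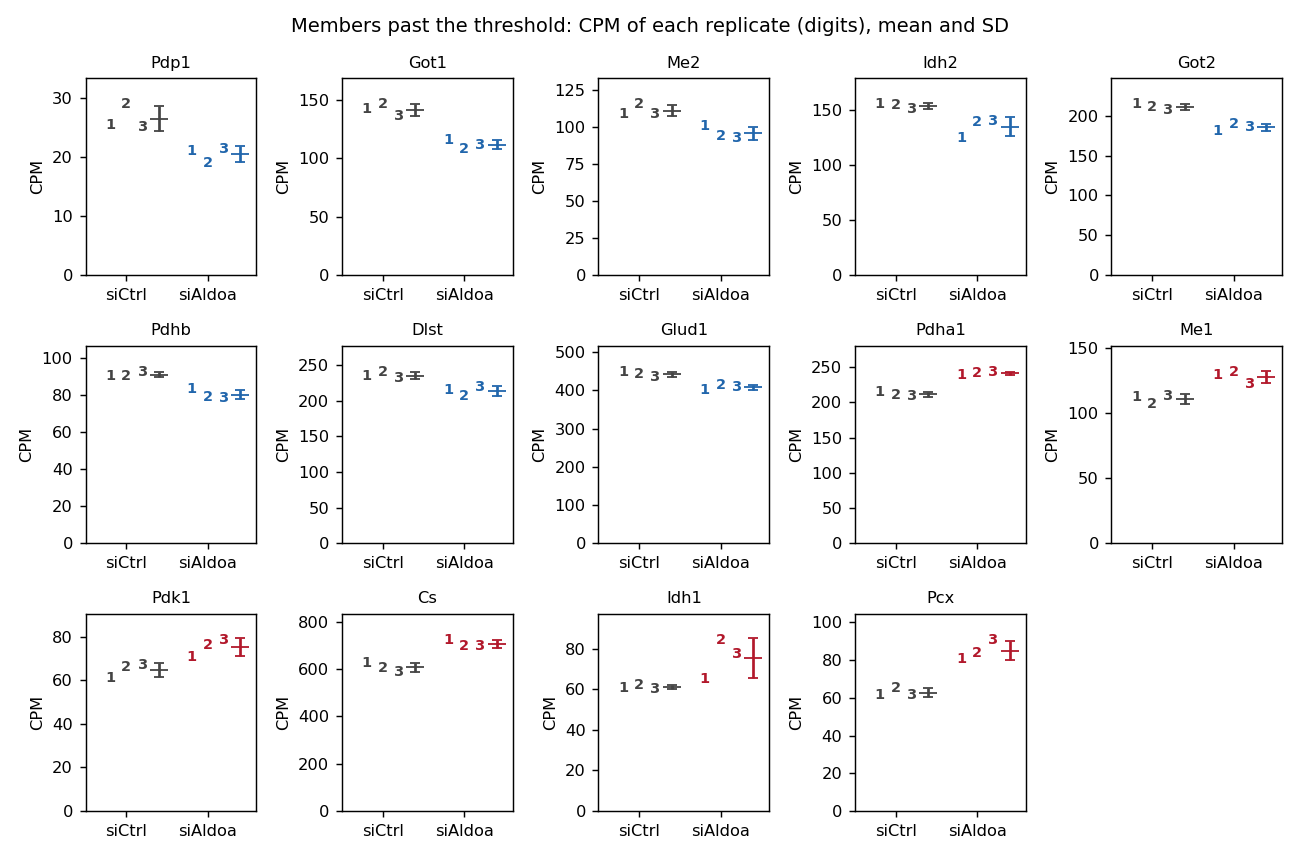
CPM of the 14 genes that passed, by library; digits are the replicate numbers of siCtrl (grey) and siAldoa (blue where lower, red where higher), with the mean and SD (n = 3) beside them and all axes starting at 0. In each of the 14 genes the siAldoa libraries lie on one side of the siCtrl libraries, although in Idh1 siAldoa replicate 1 (65.0 CPM) lies close to the highest control (62.1 CPM).

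Ratios within a library do not depend on a scaling factor common to all its genes, but they can change under quantile normalization. The 6 ratios given here were formed after the values of the single genes were seen, so they restate those values and carry no test. With 3 against 3 libraries the exact two-sided permutation test cannot go below p = 0.1. The ratio of Me1 to Me2 was 1.03, 0.924 and 1.04 in siCtrl and 1.28, 1.40 and 1.32 in siAldoa. The ratio of Idh1 to Idh2 was 0.391, 0.402 and 0.400 in siCtrl and 0.519, 0.605 and 0.550 in siAldoa. Both cytosolic to mitochondrial ratios were higher in every siAldoa library. Got1 to Got2 went the other way, from a mean of 0.671 ± 0.0186 to 0.602 ± 0.0351 (SD, n = 3), with siAldoa replicate 1 (0.639) close to the lowest control (0.657). Mdh1 to Mdh2 stayed within the spread of the controls, at 0.371 ± 0.0311 and 0.373 ± 0.0035 (SD, n = 3). A shift of the cytosolic relative to the mitochondrial isoenzyme was therefore not common to the 4 pairs. Pdk1 to Pdp1, the kinase and the phosphatase that passed, was 2.28 to 2.66 in siCtrl and 3.36 to 4.01 in siAldoa. The kinase Pdk3 moved against Pdk1, with means of 29.9 CPM in siCtrl and 25.4 CPM in siAldoa, and did not pass. The ratio of Pdk1 to Pdp1 therefore does not stand for all kinases and phosphatases. Pdha1 to Pdhb, the subunits of one enzyme, was 2.26 to 2.39 in siCtrl and 2.89 to 3.11 in siAldoa. In both pairs every siAldoa library was higher.

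**Figure D3:**
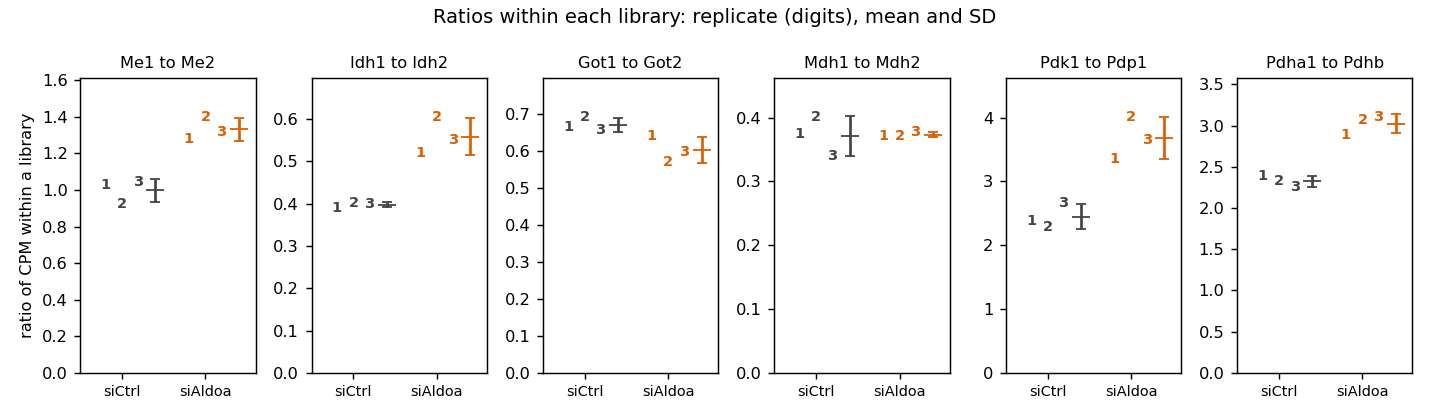
Ratio of the CPM of a pair of genes within each library; digits are replicate numbers of siCtrl (grey) and siAldoa (orange), with the mean and SD (n = 3). Me1 to Me2, Idh1 to Idh2, Pdk1 to Pdp1 and Pdha1 to Pdhb are higher in all siAldoa libraries, Got1 to Got2 is lower, and Mdh1 to Mdh2 overlaps.

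Several of these genes share sequence with copies elsewhere, between which the counting could have split reads. A transcript that matched over a long stretch was in the table for Cs (Csl, 90.4% identity), Glud1 (Glud-ps, 97.6%), Got2 (Gm10874, 98.8%), Pdha1 (4930519F09Rik, 90.1%), Pdhb (Gm6123, 97.0%) and Suclg2 (Gm15163, 98.9%). Shorter matches in the table included Gm7329 for Me1 (99.05% over 210 bases, 199 reads over all libraries) and Gm43444 for Glud1 (96.9% over 293 bases, 243 reads), and these were not added to their genes. Csl itself rose (log2 fold change 0.20, limma adjusted p = 0.0095), and Glud-ps (-0.21, limma adjusted p = 0.0097) and Gm6123 (-0.26, limma adjusted p = 0.021) fell, in the direction of their parent genes. Gm6123 held 1142 reads over all libraries against 1909 of Pdhb, so a large part of the Pdhb signal is uncertain. With the 6 longer copies added, a setting chosen after the data were seen, Cs (0.21), Got2 (-0.18), Glud1 (-0.13), Pdha1 (0.17) and Pdhb (-0.21) still passed by limma, and Suclg2 (-0.24, limma adjusted p = 0.037) passed as well. Exons of Pdha1 overlap 603 bases of Map3k15 and those of Mpc1 480 bases of 4930506C21Rik, both on the opposite strand, and Me1, Mdh1 and Idh3b overlap other genes by 5 to 52 bases. The libraries were directional, but whether the counting used strand is not given in the sources used here, so reads of these pairs cannot be told apart. Map3k15 had 44 reads over all libraries against 5063 of Pdha1.

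Neighbouring steps were described from lists written with earlier results of these data known. The shares that passed are to be read against 20.4% of all genes and 36.5% of genes with at least 20 CPM. Of 11 other TCA enzymes and isoforms in the table, 2 fell and 1 rose (27.3%). Pck2, the mitochondrial enzyme that turns oxaloacetate into phosphoenolpyruvate, had 149 to 154 CPM in siCtrl and 116 to 129 CPM in siAldoa (log2 fold change -0.31, limma adjusted p = 0.00017). Acly, which splits exported citrate, fell (-0.20, limma adjusted p = 0.00093), and the oxoglutarate dehydrogenase isoform Ogdhl rose from 65.1 to 68.3 CPM to 87.2 to 97.1 CPM (0.45, limma adjusted p = 2.1e-05). Of 9 assembly and lipoylation factors and the PDP regulator none passed by limma, and 1 passed by edgeR, the lipoyl transferase Lipt2 (log2 fold change -0.57, edgeR adjusted p = 0.044, 17 to 36 reads per library).

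Of 7 mitochondrial carbon carriers, 2 fell (28.6%, against 20.4% of all genes). Slc25a13, an aspartate-glutamate carrier of the malate-aspartate shuttle in which Got1 and Got2 also act, had 65.9 to 72.5 CPM in siCtrl and 51.1 to 56.4 CPM in siAldoa (log2 fold change -0.35, limma adjusted p = 0.0011). Other genes of that shuttle did not pass, among them the carriers Slc25a12 (-0.08, limma adjusted p = 0.42) and Slc25a11 (-0.04, limma adjusted p = 0.74), and Mdh1 and Mdh2. The citrate carrier Slc25a1 passed (-0.24, limma adjusted p = 0.035) although its groups overlapped, and its call was kept among single left-out libraries only without siCtrl replicate 3 (adjusted p up to 0.27 otherwise). Of 5 lactate genes, 2 fell (40%), which are the monocarboxylate transporter Slc16a1 (-0.34, limma adjusted p = 4.7e-06) and Ldha (-0.10, limma adjusted p = 0.026), the latter lost without siCtrl replicate 1 or 3 or siAldoa replicate 1 or 2 (adjusted p up to 0.151) and under quantile normalization (-0.05, adjusted p = 0.406 by limma). Of 14 glycolytic enzymes besides Aldoa, 50.0% passed, against 20.4% of all genes and 36.5% of genes with at least 20 CPM. Of them, 2 fell (Gapdh -0.19 and Pgam1 -0.13) and 5 rose, led by Eno2 (0.74), Hk2 (0.47) and Pfkl (0.32), all by limma. The Gapdh call was lost without siCtrl replicate 3 or siAldoa replicate 2 (adjusted p up to 0.0848) and the Pgam1 call without replicate 1 or 2 of either group (adjusted p up to 0.0811) and under quantile normalization (-0.06, adjusted p = 0.365 by limma).

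**Figure D4:**
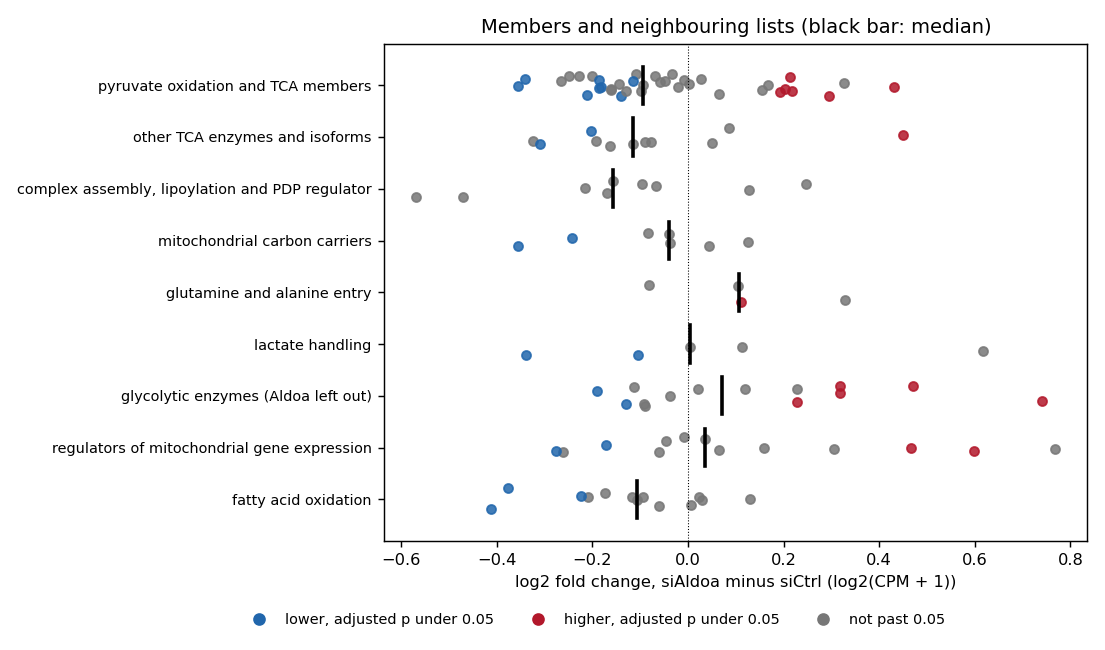
Log2 fold change (siAldoa minus siCtrl, log2(CPM + 1) scale) of the 37 genes in the top line and of the neighbouring lists under it; each point is 1 gene, coloured where it passed an adjusted p under 0.05 by limma, and the black bar is the median of the list. The medians lie between -0.16 and 0.11, with genes on both sides of 0 in every list.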

How the data were processed

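Per the labels and the methods of the study, poly(A) RNA of siCtrl and siAldoa cells was made into directional libraries and aligned to mm10 with Bowtie2 2.2.7. The authors then drew equal numbers of reads per library, tallied reads by gene and deposited CPM of an effective library size, with ERCC spike-ins added at different steps in replicate 1 and in replicates 2 and 3. The deposited CPM table held 0 spike-in genes and 1834 genes with fewer than 12 reads, the minimum given in the methods. A deposited table of the authors' own comparison (fold changes and p-values) was not used here. The annotation release, the use of strand and the handling of multi-mapping reads are not given in the sources used here.

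All CPM values (100%) were whole multiples of 1 read within 0.001, so reads were recovered. They carry no molecular identifiers, and depth therefore covers counting error only. Because the unit is CPM, log2(CPM + 1) was fitted over 18001 genes with limma 3.58.1 (R 4.3.3, two-sided, mean-variance trend, Benjamini-Hochberg adjustment) in place of the edgeR of the methods, and fold changes of low genes are understated on this scale. edgeR 4.0.16 (quasi-likelihood) and DESeq2 1.42.0 on the recovered reads, another pseudocount (0.1), a filter at the lower quartile, other scalings, no trend, a replicate block and left-out libraries were alternatives. The scripts were tested on simulated data. Lengths and overlaps came from GENCODE M21 (17932 identifiers found) and copies from blastn 2.17.0 (at least 90% identity). Values per library are given for genes that passed, genes whose call differed between tools and the most abundant gene of each step. Of each neighbouring list, Aldoa and up to 3 lowest and 3 highest genes that passed are named, and others were added after their values were seen. Members and lists were chosen with earlier results of these data known. A few genes of the neighbouring lists and markers are not reported here.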

Additional observations from a re-analysis of the deposited data

How the results depend on the processing

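Counts are given as total (lower and higher). Against 3676 (1809 and 1867) genes and 14 (8 and 6) of the 37 genes, no mean-variance trend gave 1440 (616 and 824) and 2 (1 and 1), which were Pcx and Got1. DESeq2 gave 2183 (1117 and 1066) and 6 (2 and 4), and averaging replicates 1 and 2 gave 3107 (1516 and 1591) and 8 (4 and 4). Without replicate 1, 2 or 3 of both groups or any single library, 1014 to 2813 genes (520 to 1371 lower, 494 to 1464 higher) and 3 to 10 of the 37 genes (1 to 6 lower, 2 to 5 higher) passed. The replicate block gave 3170 (1559 and 1611) genes and 10 (4 and 6) of the 37, losing Pdhb, Pdp1, Dlst and Glud1, and edgeR with the block 3356 (1659 and 1697) and 12 (6 and 6). Each gene's deviation from the mean of its group, on the log2(CPM + 1) scale, was correlated between siCtrl and siAldoa libraries across 8271 genes. These deviations correlated at 0.0397, 0.0396 and 0.208 for same-numbered libraries. For siCtrl replicate 2 with siAldoa replicate 1 the value was 0.125. Replicates 1 and 2 did not correlate best with their own number. Replicate 3 did, and its correlations with other numbers were -0.15 to -0.0795. Within a group the deviations of a gene cancel out, so these negative values are not separate from the 0.208 of replicate 3. Whether same-numbered libraries share a culture or a batch was not tested. Of 701 alternative values of the 37 genes, 560 kept direction and side of the threshold, 106 no longer passed, 13 newly passed and 22 changed sign. The 701 values include those of TMM scaling, which gave the same counts as the main test. The sign changes were in genes that did not pass. Sdha (0.0195) and the log2 ratio of Mdh1 to Mdh2 (-0.0154) changed sign under quantile normalization, and Idh3g (0.0040) and Sdhd (0.0024) with replicates 1 and 2 averaged. With libraries left out, the log2 fold change ranged from -0.10 to 0.0397 for Sdhd, -0.10 to 0.10 for Mpc2, -0.022 to 0.0391 for Dlat, -0.0427 to 0.0407 for Idh3g, -0.14 to 0.0274 for Suclg1 and -0.0706 to 0.0149 for Sdha, and that ratio from -0.0596 to 0.0721. The causes were not tested. Depth limits the smaller differences.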

Other observations

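The listed regulators of mitochondrial gene expression did not move as a group. Of 13 in the table (Ppara was not listed), 2 fell and 2 rose by limma (adjusted p under 0.05), 30.8% against 20.4% of all genes. Esrra, the oestrogen-related receptor alpha, had 39.7, 36.1 and 36.2 CPM in siCtrl and 60.7, 54.3 and 56.3 CPM in siAldoa, and rose by a log2 fold change of 0.60 (limma adjusted p = 1.1e-05). Foxo3, a forkhead factor of the starvation response, had 60.0, 59.9 and 55.6 CPM in siCtrl and 80.2, 82.0 and 81.2 CPM in siAldoa, and rose by 0.47 (limma adjusted p = 1.8e-05). For both, every siAldoa library was well above the controls. Tfam, which packages and transcribes mitochondrial DNA, fell from 92.9, 82.9 and 78.0 CPM to 69.9, 72.4 and 66.2 CPM (-0.28, limma adjusted p = 0.0073), a call lost without siCtrl replicate 1 or siAldoa replicate 3 (adjusted p up to 0.075). Gabpa, a subunit of nuclear respiratory factor 2, fell by 0.17 on the log2 scale (limma adjusted p = 0.041), a call lost without any single library (adjusted p 0.0563 to 0.232). The coactivator Ppargc1a rested on 1 to 9 reads per library and did not pass (limma adjusted p = 0.056).

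Of 13 genes of fatty acid oxidation in the table (Cpt1b was not listed), 3 fell and none rose by limma (23.1% against 20.4% of all genes). The enoyl-CoA hydratase Echs1 had 52.9, 53.1 and 57.9 CPM in siCtrl and 41.8, 36.6 and 44.2 CPM in siAldoa (log2 fold change -0.41, limma adjusted p = 0.0012). The acyl-CoA dehydrogenase Acadl had 71.8, 87.3 and 77.8 CPM in siCtrl and 59.9, 57.5 and 63.9 CPM in siAldoa (-0.38, limma adjusted p = 0.00085). Acat1, the mitochondrial thiolase of ketone and isoleucine breakdown, fell by 0.22 on the log2 scale (limma adjusted p = 0.0037). The groups of these 3 genes did not overlap, and the calls were kept without any single library. The carnitine transferases Cpt1a and Cpt2, at the entry of the pathway, had log2 fold changes of 0.13 and 0.03 and did not pass.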
